A study of Mus musculus with 2 samples.

Results

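The 31 genes described here encode enzymes of cholesterol and fatty acid synthesis and the proteins that control them through SREBP transcription factors, measured after knockdown of Lamtor1 in a macrophage-like mouse cell line, RAW264.7. They were taken by name from the array annotation, where Msmo1 still stands as Sc4mol, and 45 probes carried their names. All 31 were among the 13773 genes measured, and all were well above background on both arrays. The samples were Lamtor1 knockdown RAW264.7 cells and control RAW264.7 cells, with 1 array for each. Lamtor1 anchors Ragulator, the complex through which the kinase complex mTORC1 is brought to the lysosome, and the series asks about the activity of the transcription factor TFEB in such cells. Per the labels, short hairpin RNA against Lamtor1 came from a lentivirus mixture of 2 vectors, and the cells then went through limiting dilution. The same protocol text stands with both samples, so the treatment of the control cells and the number of clones behind each sample are not known here.

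With 1 array in each group no test was possible, and every difference describes these 2 arrays only. A level is the log2 processed signal of a gene's brightest probe relative to the 75th percentile of its own array, and a difference is the knockdown level minus the control level. The error printed with a difference is the scanner's own error model carried over both arrays. It was 0.20 for nearly every gene here (0.204 to 0.206) and covers the spot measurement, not the cultures or the labelling. Probes spotted several times gave a median SD of 0.0447 for a single-spot difference. Lamtor1 itself had a level of -0.43 in knockdown cells, against 4.10 in control cells. All 10 macrophage genes looked up, such as Csf1r and Cd68, were above background on both arrays. Of these 10, 6 were below 0, with a median difference of -0.34, close to the median of -0.31 of the 31 genes. Their summed signal, relative to the 75th percentile, was 337 in knockdown cells and 389 in control cells. Cd68 was 2-fold or more higher and Adgre1 2-fold or more lower in the knockdown, and the part of these shifts in the results was not tested. None of the B cell, epithelial, fat cell and liver cell genes was above background. In fibroblast and T cell lists, 1 of 4 genes (Col1a2) and 2 of 4 (Cd3e and Cd4) were above it, with differences of 0.08, 0.05 and 0.07. In RNA of whole cultures, fewer cells that express a gene and less RNA of it per cell cannot be told apart.

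Cholesterol is built from acetyl-CoA by way of mevalonate, isoprenoid units, squalene and lanosterol, and fatty acids are built from the same precursor. SREBP proteins are made as membrane-bound precursors in the endoplasmic reticulum, where Insig proteins hold them back through Scap when sterols are plentiful. When sterols run short, Scap carries them to the Golgi, where proteases release the part that enters the nucleus and binds sterol regulatory elements, usually beside sites for NF-Y and Sp1. In many cell types mTORC1 signalling promotes SREBP activity, and macrophages depend on this balance because they take up much cholesterol from other cells.

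The promoters of Hmgcs1, Srebf2 and Elovl6 are shown first. RefSeq promoters of build GRCm38.p6, each with 250 bases before and 50 after a gene's start, were given for 25 of the 31 genes. None was given for Fdps, Fdft1, Sqle, Stard4, Scd1 and Scd2, so these 6 were not searched for motifs. Only the bases before the start are printed, 5′ to 3′ on the gene's strand. Hmgcs1, which makes the precursor of mevalonate, is shown because it held the sterol regulatory element TCACCCCAC (chr13:119690101-119690350, plus strand), with that element and CCAAT boxes of either strand in capitals. Srebf2, the SREBP gene with the largest difference, lies at chr15:82147019-82147268 on the plus strand for this window, and Elovl6, the gene with the lowest difference, at chr3:129532136-129532385 on the plus strand. In both, capitals mark CCAAT and GGGCGG boxes of either strand, and in Srebf2 also the shortened element TCACCCCA. The Elovl6 window held none of these.
Hmgcs1: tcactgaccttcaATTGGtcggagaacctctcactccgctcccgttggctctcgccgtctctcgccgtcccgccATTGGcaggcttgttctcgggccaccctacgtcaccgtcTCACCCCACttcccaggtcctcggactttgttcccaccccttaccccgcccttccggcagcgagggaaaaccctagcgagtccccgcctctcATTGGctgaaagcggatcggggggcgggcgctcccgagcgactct
Srebf2: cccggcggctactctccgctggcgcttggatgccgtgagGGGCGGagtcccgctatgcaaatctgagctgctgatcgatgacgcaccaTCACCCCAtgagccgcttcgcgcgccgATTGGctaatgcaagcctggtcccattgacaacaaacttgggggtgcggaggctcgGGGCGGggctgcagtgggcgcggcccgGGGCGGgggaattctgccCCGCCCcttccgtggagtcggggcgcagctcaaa
Elovl6: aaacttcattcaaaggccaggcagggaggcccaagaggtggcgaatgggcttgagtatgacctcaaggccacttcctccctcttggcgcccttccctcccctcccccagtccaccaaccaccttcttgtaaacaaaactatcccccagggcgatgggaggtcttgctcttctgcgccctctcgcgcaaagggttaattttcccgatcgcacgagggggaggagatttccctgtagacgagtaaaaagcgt

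Counted on both strands of the 300 bases, the NF-Y box CCAAT stood in a promoter of 21 of the 25 genes (84.0%), against 41.1% of 27025 genes with a promoter in the table. The Sp1 box GGGCGG stood in 20 of 25 (80.0%), against 38.2% of all genes. The median GC content of these 33 promoters was 61.3%, against 52.7% over all 32851 promoters, and its part in the box counts was not tested. CCAAT was missing in the windows of Acaca, Acat2, Elovl6 and Scap, whose differences were -0.25, 0.31, -1.01 and 0.36, so the genes without the box lay on both sides of 0. The sterol regulatory element TCACCCCAC stood in 1 of 25 genes, Hmgcs1, 137 bases before the start, against 0.614% of all genes, and the looser form TCACNCCAC, which includes it, was in the same 1 gene, against 1.44%. Without its last base, a form chosen after the Srebf2 window was seen, TCACCCCA was in 2 of 25 genes, Hmgcs1 and Srebf2, against 1.77%. It began 162 bases before the Srebf2 start. The E-box CACGTG was in 5 of 25 genes, against 8.09%, and the lysosomal form TCACGTGA, which contains it, in 0 of 25, against 1.12%. Among measured genes, the 76 with TCACCCCAC in a promoter had a median difference of 0.001, against -0.04 for the 10536 without it. A match describes the letters in this window and says nothing of binding.

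Across the 31 genes most differences were small and below 0. The difference was below 0 for 24 of 31 genes, where 54.3% of all measured genes were below 0. The median was -0.31, against -0.05 over all genes, and the middle of the 31 genes ran from -0.51 to -0.01 between quartiles, against -0.37 to 0.31 over all genes. At 2-fold or more, 1 gene was higher in the knockdown, Srebf2, against a background of 9.0% of all genes, and 1 was lower, Elovl6, against 8.35%. Both counts rest on 1 gene each, and both genes are described below with the limits of their probes. By the finer limit of 2 scanner errors, 11 of 31 genes were lower, against 20.7% of all genes, and 2 of 31 were higher, against 18.9%. That limit was chosen after the data were seen. The counts use brightest probes, and Ggps1, Fdft1 and Srebf2 among them had other probes across 0.

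**Figure D1:**
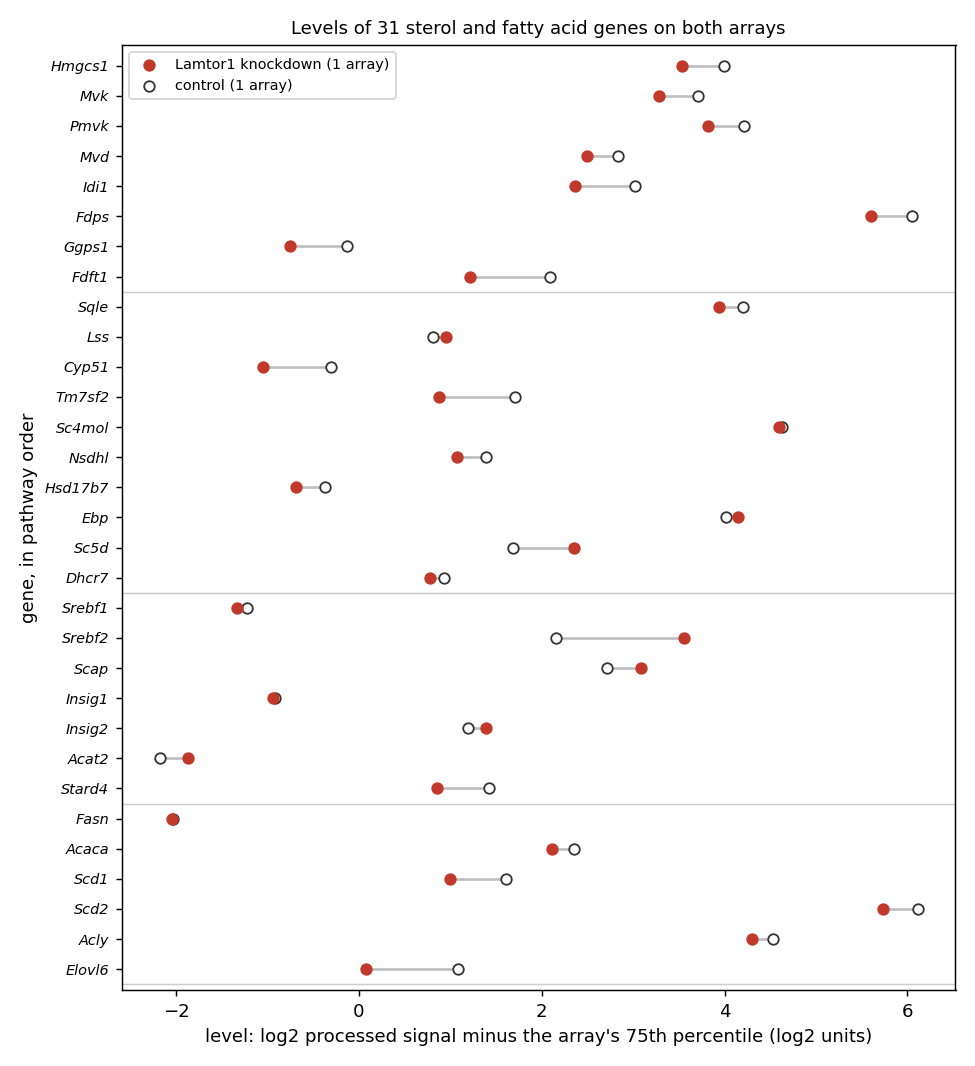
Level of each gene's brightest probe (log2 processed signal minus the 75th percentile of the array, x axis) on the Lamtor1 knockdown array (filled) and the control array (open), with genes in pathway order and lines between the 4 stages. The filled point lies to the left for all 8 genes from mevalonate to squalene. It lies to the right for 7 of the 31 genes, furthest for Srebf2, Sc5d and Scap.

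The steps from acetyl-CoA units to squalene were the most uniform stage. By their brightest probes all 8 genes were lower in the knockdown, with a median difference of -0.45 and a range of -0.88 to -0.34. Of the 8 genes, 6 were lower by more than 2 scanner errors, where 20.7% of all genes were. These 6 include Ggps1 and Fdft1, whose other probes lay above 0. Hmgcs1, the synthase that makes HMG-CoA, had a level of 3.53 in knockdown cells, against 3.99 in control cells, a difference of -0.46 ± 0.20. Mvk, mevalonate kinase, had 3.28 in knockdown cells, against 3.71 in control cells, a difference of -0.44 ± 0.20, and its second probe gave -0.39. Both thus stood at roughly the same distance below the control.

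Pmvk, the next kinase of the pathway, had a level of 3.82 in knockdown cells, against 4.21 in control cells, and its probes gave differences of -0.39 and -0.50. Mvd, the decarboxylase that yields the first isoprenoid unit, had 2.49 in knockdown cells, against 2.83 in control cells, a difference of -0.34 ± 0.20. The differences of the brightest Pmvk probe and of Mvd lay within 2 scanner errors. Idi1, the isomerase that readies these units for chain building, had 2.37 in knockdown cells, against 3.02 in control cells, a difference of -0.65 ± 0.20. Fdps, which builds farnesyl diphosphate, the branch point of sterols and protein prenylation, had 5.60 in knockdown cells, against 6.05 in control cells, a difference of -0.45 ± 0.20. Idi1 in knockdown cells was at 63.7% of the control signal and Fdps at 73.3%.

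Ggps1 and Fdft1 take farnesyl diphosphate in different directions, Ggps1 towards the geranylgeranyl groups of small GTPases and Fdft1 towards squalene, and both had probes that disagreed. The brightest Ggps1 probe had a level of -0.76 in knockdown cells, against -0.13 in control cells, a difference of -0.63 ± 0.20. Its other probe had -0.72 in knockdown cells, against -0.92 in control cells, a difference of 0.20 within its error. The brightest Fdft1 probe had 1.22 in knockdown cells, against 2.10 in control cells, a difference of -0.88 ± 0.20, the lowest of the stage. The other Fdft1 probe was near background, with processed signals of 39.4 in knockdown cells and 16.2 in control cells, and only the knockdown signal counted as well above background. Its difference of 1.18 ± 0.45 is therefore no measured fold. With the median over probes as the gene value, Ggps1 had a difference of -0.22 and Fdft1 of 0.15. The Fdft1 value takes in the probe near background, so it is no measured fold either.

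For each of these genes 1 of the discordant probes is printed, 5′ to 3′ on the gene's strand, from the array files in build mm9. The Fdft1 probe covers 60 bases that the files place between the ends of chr14:63765750-63769990, a stretch of 4241 bases on the minus strand, so it is split over at least 1 intron. The 3′ end of the weaker Fdft1 probe lies 1188 bases further downstream. The Ggps1 probe shown (chr13:14145961-14146020, minus strand) is the one with the difference of 0.20. It ends in the stop codon TAA, in capitals, of the 1 reading frame that is open to that point, and the probe with the lower value lies 1251 bases downstream.
Fdft1: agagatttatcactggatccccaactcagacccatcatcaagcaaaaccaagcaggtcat
Ggps1: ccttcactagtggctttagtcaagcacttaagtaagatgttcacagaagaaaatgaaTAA

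The steps from squalene to cholesterol were mixed. Of 10 genes, 7 were below 0 and 3 above, with a median of -0.21, and the range ran from -0.82 to 0.67. Sqle, squalene epoxidase and a control point of the pathway, had a level of 3.94 in knockdown cells, against 4.20 in control cells, a difference of -0.27 ± 0.20. Lss, which closes the rings to lanosterol, had 0.95 in knockdown cells, against 0.81 in control cells, a difference of 0.14 ± 0.20. Neither exceeded 2 scanner errors.

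Cyp51, the lanosterol demethylase, and Tm7sf2, the sterol reductase that acts after it, were the lowest genes of this stage. Cyp51 had a level of -1.05 in knockdown cells, against -0.30 in control cells, a difference of -0.74 ± 0.20. Tm7sf2 had 0.88 in knockdown cells, against 1.70 in control cells, a difference of -0.82 ± 0.20, with its second probe at -0.86. In knockdown cells Cyp51 was at 59.7% and Tm7sf2 at 56.5% of the control signal, and these were the only genes of the stage lower by more than 2 scanner errors.

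The enzymes that remove the methyl groups at carbon 4 stayed closer to the control. Sc4mol (Msmo1), the oxidase of that step, had a level of 4.59 in knockdown cells, against 4.63 in control cells, and Nsdhl, the dehydrogenase, had 1.08 in knockdown cells, against 1.39 in control cells. Hsd17b7, the ketoreductase, had -0.69 in knockdown cells, against -0.38 in control cells. The differences were -0.03, -0.31 and -0.31, all within 2 scanner errors, and the second probes of Nsdhl and Hsd17b7 gave -0.41 and -0.27.

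The last steps, which place and remove double bonds, included the clearest higher enzyme. Ebp, the isomerase, had a level of 4.15 in knockdown cells, against 4.02 in control cells, a difference of 0.13 ± 0.20. Sc5d, the desaturase, had 2.36 in knockdown cells, against 1.69 in control cells, a difference of 0.67 ± 0.20, or 1.59-fold higher. Dhcr7, the reductase of the final step in one route to cholesterol, had 0.78 in knockdown cells, against 0.93 in control cells, a difference of -0.15 ± 0.20. By brightest probes, Sc5d was the only enzyme of either sterol stage higher by more than 2 scanner errors. By that limit 8 of the 18 enzymes were lower, among them Ggps1 and Fdft1, whose other probes lay above 0. Over all genes 18.9% were higher and 20.7% lower by it.

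**Figure D2:**
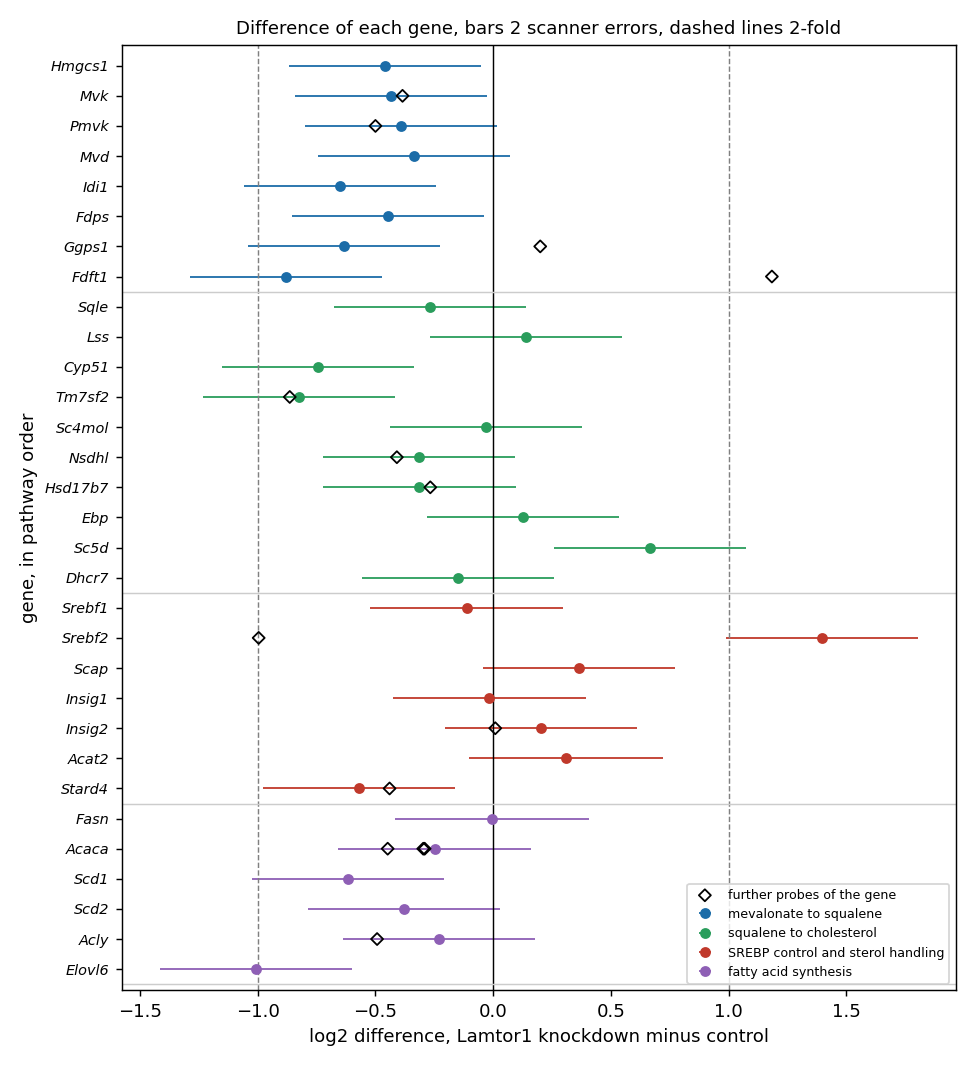
Difference of each gene's brightest probe (log2, Lamtor1 knockdown minus control, x axis) with bars of 2 scanner errors, genes in pathway order and coloured by stage, with open diamonds for further probes of the same gene and dashed lines at 2-fold. The diamonds lie across 0 from the coloured point for Ggps1, Fdft1 and Srebf2.

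The control genes did not share a direction, with 3 of 7 below 0 and a median of 0.20. Srebf2, which encodes the SREBP that mainly drives cholesterol genes, was the highest of all 31 genes by its brightest probe and was lower by its other probe. The brightest probe had a level of 3.55 in knockdown cells, against 2.16 in control cells, a difference of 1.40 ± 0.20, or 2.63-fold higher. The other probe had 0.46 in knockdown cells, against 1.46 in control cells, a difference of -0.996 ± 0.20. Both probes were well above background on both arrays and both differences exceeded 2 scanner errors. The probes carry the same RefSeq accession, and the median over them gave a difference of 0.20, so these arrays fix no direction for Srebf2.

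The brightest Srebf2 probe lies at chr15:82030068-82030127 on the plus strand of mm9 and is printed because the single 2-fold higher value rests on it. Of its 3 reading frames 1 has no stop codon. The probe with the lower value starts 4697 bases further downstream. Srebf2 also contains the miRNA gene Mir33 by the RefSeq coordinates of GRCm38.p6 (chr15:82198127-82198147, plus strand), whose mature form is known to restrain cholesterol efflux, and it is shown from RefSeq with its seed, bases 2 to 8, in capitals. The array has no probe by that name.
Srebf2: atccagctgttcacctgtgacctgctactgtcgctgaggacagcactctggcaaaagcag
mmu-miR-33-5p: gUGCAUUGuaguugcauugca

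Probes of opposite sign were not peculiar to these genes. Counting probes that were above background on each array, 11 genes had several, and 2 of them (Ggps1 and Srebf2) had probes on both sides of 0, where 22.6% of 3263 such genes over the array did. Fdft1, whose second probe was measured in the knockdown only, is not in that count. Apart from these 3, each gene among the 31 with several probes had them on the same side of 0. The second Insig2 probe, at 0.01 ± 0.20, was in effect at 0. The 2 brightest Acaca probes, which are shifted by 1 base, gave -0.25 and -0.29. Its 2 dimmer probes gave -0.30 ± 0.30 and -0.45 ± 0.37.

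Srebf1, whose product mainly drives fatty acid genes, had a level of -1.34 in knockdown cells, against -1.23 in control cells, a difference of -0.11 ± 0.21. Scap, the escort protein of the SREBP precursors, had 3.08 in knockdown cells, against 2.72 in control cells, a difference of 0.36 ± 0.20. Scap lies in a region of chromosome 9 where the 69 other measured genes within 2.5 Mb on each side had a median difference of 0.35, much like its own, and the part of the region in the Scap value was not tested. For Sc5d, also on chromosome 9, the 37 neighbours had a median of 0.13, below its own 0.67. A match was not particular to Scap: neighbours of Insig2 and Acat2 had medians of 0.19 and 0.20, beside their own 0.20 and 0.31. For Srebf2 and Stard4 the neighbours had -0.11 and -0.04, beside 1.40 and -0.57.

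Insig1 and Insig2 encode the retention proteins, and Insig1 is itself a well-known SREBP target. Insig1 had a level of -0.94 in knockdown cells, against -0.92 in control cells, a difference of -0.02 ± 0.20. Insig2 had 1.40 in knockdown cells, against 1.19 in control cells, a difference of 0.20 ± 0.20, and its other probe gave 0.01. Neither retention gene left the range of 2 scanner errors.

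Acat2, the cytosolic thiolase that starts the sterol route, had a level of -1.87 in knockdown cells, against -2.18 in control cells, a difference of 0.31 ± 0.21. Stard4, a carrier of cholesterol between membranes, had 0.85 in knockdown cells, against 1.42 in control cells, a difference of -0.57 ± 0.20, and its second probe gave -0.44. Stard4 was the only gene of this group that was lower by more than 2 scanner errors.

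Fatty acid synthesis genes were all below 0 in the main setting, where 54.3% of all measured genes were. The median over the 6 genes was -0.31. Fasn, at -0.005, was in effect at 0. It lay above 0 with median scaling (0.088), quantile normalization (0.039) and cyclic loess (0.082). Elovl6, which lengthens palmitate, was the lowest of all 31 genes. Its level was 0.08 in knockdown cells, against 1.08 in control cells, a difference of -1.01 ± 0.20, or 2.01-fold lower, so it stood just inside the 2-fold limit. The next gene outside that limit was Fdft1 at -0.88. Elovl6 itself lay outside the limit with normexp background correction, at -0.94, and with 2 other scalings. Elovl6 had 20 measured neighbours within 2.5 Mb on each side, with a median difference of -0.34.

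Scd1 and Scd2 encode desaturases that make oleate and palmitoleate, and their sequences are close relatives, so cross-binding of probes was not tested. Scd1 had a level of 0.99 in knockdown cells, against 1.61 in control cells, a difference of -0.62 ± 0.20. Scd2 had 5.73 in knockdown cells, against 6.11 in control cells, a difference of -0.38 ± 0.20. Scd1 exceeded 2 scanner errors and Scd2 did not.

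The genes that make the saturated chain itself were nearest to the control. Acly, which supplies cytosolic acetyl-CoA from citrate, had a level of 4.30 in knockdown cells, against 4.53 in control cells, a difference of -0.23 ± 0.20, and its second probe gave -0.49. Acaca, the carboxylase that makes malonyl-CoA, had 2.11 in knockdown cells, against 2.36 in control cells, a difference of -0.25 ± 0.20. Fasn, the synthase that assembles the chain, had -2.04 on both arrays, a difference of -0.005 ± 0.21. By their brightest probes none of them left the range of 2 scanner errors. The second Acly probe, at -0.49 ± 0.23, did.

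**Figure D3:**
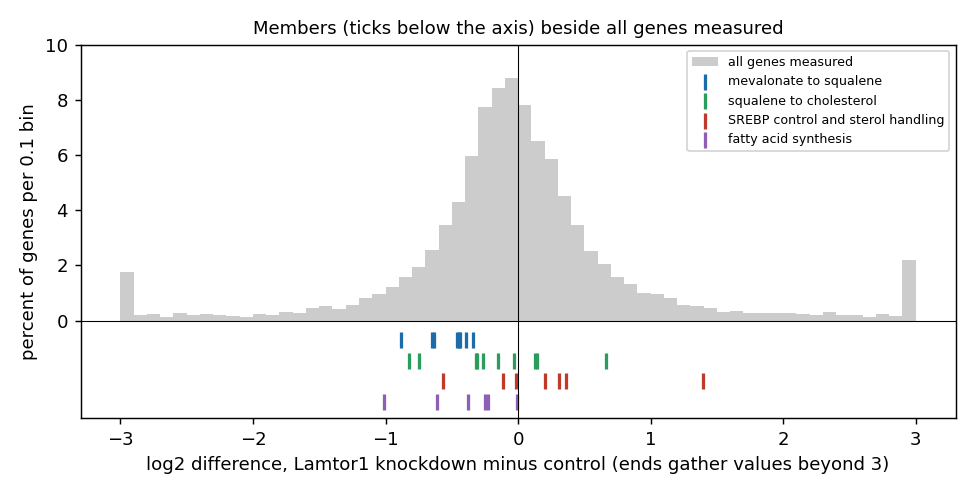
Percent of all 13773 measured genes in bins of 0.1 of the log2 difference, Lamtor1 knockdown minus control (grey, values beyond 3 gathered at the ends), with a tick below the axis for each of the 31 genes by stage. The ticks of the mevalonate to squalene stage and of fatty acid synthesis lie left of 0, with Fasn at -0.005 almost on it. Those of the control genes lie on both sides.

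Genes that act next to this pathway were looked up in 4 further lists, whose counts at 2-fold or more stand beside 9.0% higher and 8.35% lower over all genes. Among other sterol pathway and uptake genes, 16 of 19 were measured, with a median difference of 0.02, 3 at 2-fold or more higher and 1 lower. Nceh1, a hydrolase of cholesteryl esters, had a level of 3.76 in knockdown cells, against 1.78 in control cells, a difference of 1.97 ± 0.20. Npc1, which moves cholesterol out of lysosomes, had 0.40 in knockdown cells, against -1.12 in control cells, a difference of 1.53 ± 0.20. Soat1, the esterifying enzyme of macrophages, had 2.46 in knockdown cells, against 1.20 in control cells, a difference of 1.26 ± 0.20. None of these 3 is an enzyme of cholesterol synthesis. Soat2, the esterifying enzyme known from liver and intestine, had -4.31 in knockdown cells, against -1.78 in control cells, a difference of -2.53 ± 0.23. Each of these 4 values comes from a single probe.

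In the list of SREBP processing and turnover, 19 of 20 genes were measured, with a median of 0.23. Of these, 3 were below 0, where 54.3% of all measured genes were. For Mbtps1 and Syvn1, at -0.16 and 0.41, a second probe gave 0.97 and -0.48. Lpin3, a phosphatidate phosphatase, had a level of -3.01 in knockdown cells, against -4.35 in control cells, a difference of 1.35 ± 0.23. Sec24d, a coat protein of vesicles that leave the endoplasmic reticulum, had 0.22 in knockdown cells, against -0.80 in control cells, a difference of 1.01 ± 0.20. The control signal of Ubxn4 was too close to background to measure. Set against the lowest control signal well above background, Ubxn4 was 1.22-fold higher in the knockdown, a rough limit only. Thus 2 of the 3 genes counted at 2-fold or more were measured on both arrays. No gene of the list was 2-fold lower.

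Among other genes of fatty acid and NADPH supply, 28 of 31 were measured, with a median of -0.04, 2 at 2-fold or more higher and 2 lower. Fads2, a desaturase of polyunsaturated fatty acids, had a level of -0.26 in knockdown cells, against 0.82 in control cells, a difference of -1.09 ± 0.20. Acacb, the mitochondrial acetyl-CoA carboxylase, had -5.16 in knockdown cells, against -3.64 in control cells, a difference of -1.52 ± 0.29. Its knockdown signal counted as well above background but was dim, below the -4.995 of the weaker Fdft1 probe in knockdown cells. Both lower genes work on fatty acids, and each had its second probe below 0 as well. Me1, the malic enzyme that supplies NADPH, had 1.85 in knockdown cells, against 0.78 in control cells, a difference of 1.07 ± 0.20. The control signal of Scd4 was likewise not measurable. Set against the lowest control signal well above background, Scd4 was 3.73-fold higher in the knockdown, a rough limit only. The same question of related Scd sequences is open here. The 12 genes of the branches to dolichol, ubiquinone and protein prenylation had a median of -0.15, and none of them reached 2-fold.

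**Figure D4:**
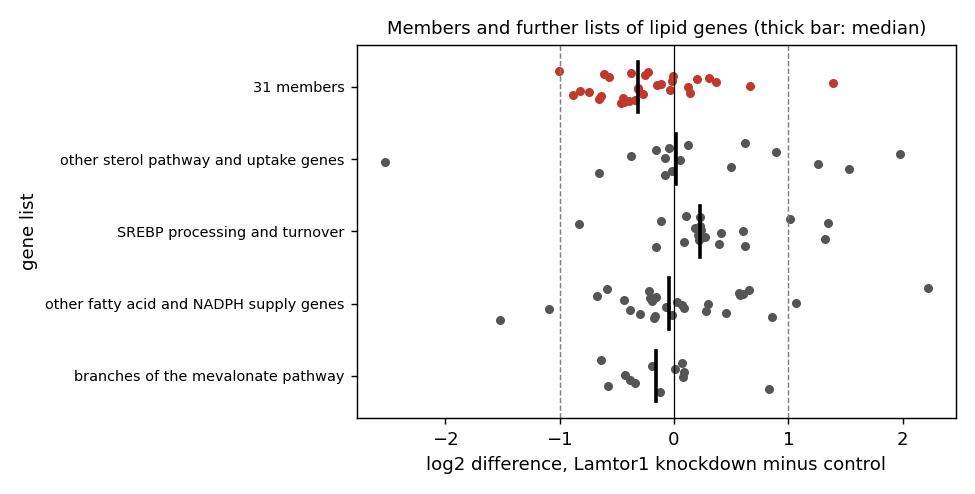
Log2 difference, Lamtor1 knockdown minus control, of the 31 genes (top row) and of the measured genes of the 4 further lists, with a thick bar at each median and dashed lines at 2-fold. The medians run from -0.31 for the 31 genes to 0.23 for SREBP processing and turnover.

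**Figure D5:**
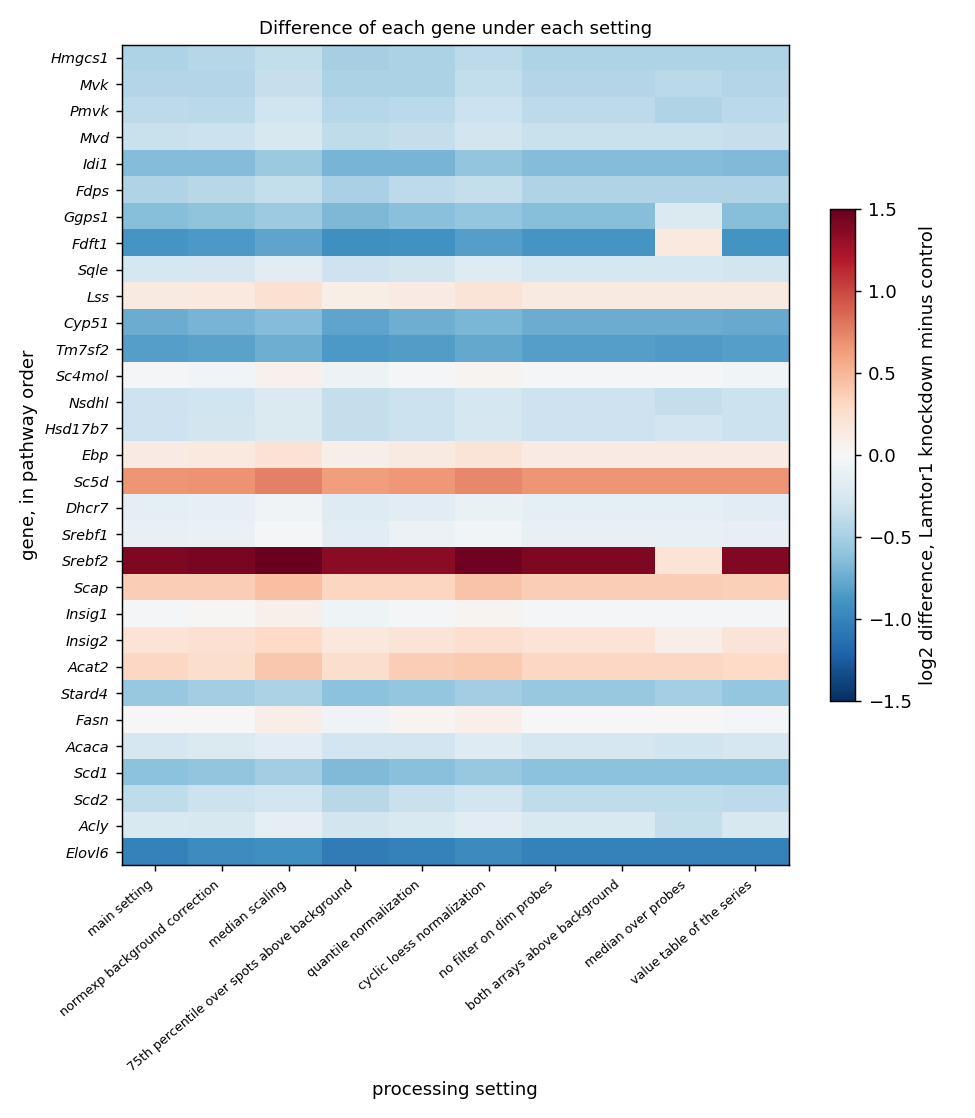
Log2 difference of each gene, Lamtor1 knockdown minus control, in colour (blue lower, red higher in the knockdown), under the main setting and 9 other ways of processing the same files. Only Ggps1, Fdft1 and Srebf2 moved by more than their scanner error, each when the median over probes was used.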

How the data were processed

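Total RNA (200 ng per sample, per the labels' protocols) was labelled with Cy3 and put on 1-colour Agilent arrays. The deposited scanner files give spot intensity on a linear scale. The submitters' processing notes name Agilent Feature Extraction 10.7.3.1. Both arrays shared a slide and a scan, and positions refer to mm9, per the file headers. The deposited value table repeats that intensity at 3 significant digits (ratio 0.995 to 1.005). Of 43020 spots that are not controls, 22745 were well above background in the knockdown and 22929 in the control, and 0 were saturated.

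Control spots and outlier spots (177 and 162) were removed. Each array's 75th percentile was subtracted from the log2 processed signal (1255.3 in the knockdown, 1171.8 in the control), spots of a probe were averaged, and a gene took its brightest probe, counted as measured where over 50% of that probe's spots were well above background on at least 1 array. Of 39420 probes, 30175 were named through RefSeq accessions, symbols or unique older symbols. Genes whose log2 difference reached 1 in either direction were counted as 2-fold. With 1 array per group there was no test and no p-value. A value below background on 1 array was set against the lowest signal well above background there. The fold is then a rough limit, since a signal above that lowest one can still count as not above background. The text names all 31 genes, Lamtor1, and up to 4 genes at 2-fold or more of each further list. Mbtps1 and Syvn1 are named for their opposed probes. The genes, lists and motifs were chosen with earlier results of these data known. Alternatives were normexp correction (limma 3.58.1, R 4.3.3, offset 50), 4 other scalings, 2 other filters, the median over probes and the value table. The averaging of spots, the choice of probe and the 2-fold count were run on simulated data. Shifts were added after scaling, so scaling, naming and the limits at background were not tested.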

Additional observations from a re-analysis of the deposited data

How the results depend on the processing

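Of the 31 genes, 27 had the same sign of difference, knockdown minus control, in all settings run, 20 below 0 and 7 above. The exceptions were Sc4mol, Insig1 and Fasn, which lay near 0, and Fdft1. Every setting except the median over probes took 1 brightest probe per gene, so a constant sign does not settle genes with opposed probes. Srebf2 is among the 7 and Ggps1 among the 20, though their other probes gave -0.996 and 0.20. The count at 2-fold or more lower was 0 with normexp correction, with median scaling and with cyclic loess, since Elovl6 then had a difference of -0.94, -0.92 and -0.96. The count at 2-fold or more higher was 0 with the median over probes, which averages the opposed Srebf2 probes to 0.20, and 0 without Srebf2, a setting added after the data were seen. Looking probes up by accession too, also added then, found 0 further probes. The median of the 31 genes was -0.22 with median scaling and -0.26 with cyclic loess, which placed the median of all genes at 0.04 and 0.03. The count below 0 ran from 21 to 24 over the settings run. With the median over probes, Ggps1 had a difference of -0.22 and Fdft1 of 0.15. No paired analysis was possible because each group has 1 array, and for the same reason no array could be left out. The number of arrays limits the precision, and the scanner error does not include differences between cultures.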
